A study of Arabidopsis thaliana with 4 samples.

Results

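The gibberellin receptor genes GID1A (AT3G05120), GID1B (AT3G63010) and GID1C (AT5G27320) were examined in dark-grown Arabidopsis thaliana seedlings of the ein3-1 eil1-1 double mutant (ein3 eil1 below) and of wild type (Col-0). The members are the probe sets that the platform annotation pairs with these genes, 3 of the 22746 plant probe sets on the Affymetrix ATH1 array and 3 of the 13356 genes that a probe set names alone, with 1 probe set for each gene. The names of all 3 probe sets end in _at, the suffix that Affymetrix gives to a probe set designed against a single transcript. The mutant carries lesions in 2 transcription factor genes of the ethylene pathway, EIN3 and EIL1. Each genotype was measured on 2 arrays, 1 RNA sample of whole seedlings per array, after 4 days of growth in darkness that followed a cold treatment of the seed and a short light pulse. How many plants were pooled for an RNA sample is not given in the sources used here. In RNA from whole seedlings, fewer cells of a type and less RNA per cell cannot be told apart.

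Gibberellins are plant hormones that promote germination and stem elongation, and in darkness they sustain the fast growth of the hypocotyl. GID1 proteins are soluble receptors of the nucleus and cytoplasm, descended from the carboxylesterase family. With gibberellin bound, a GID1 protein closes over the hormone and recruits DELLA proteins, which repress growth. The F-box protein SLY1 then marks the DELLA protein for degradation. Ethylene signalling acts on the same etiolated growth programme through EIN3 and EIL1, and the comparison asks whether the receptor transcripts differ when both factors are impaired.

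As deposited the arrays differed in overall brightness, with medians of 50.8 and 85.2 in ein3 eil1 and 49.5 and 52.3 in wild type, so log2 signals were quantile normalised. EIN3, the mutated gene analysed here, had deposited signals of 76.7 and 221 in ein3 eil1, against 766 and 992 in wild type. The groups did not overlap, the normalised log2 difference was -3.12 (SE 0.35, limma adjusted p = 0.014; 0.052 without a filter on dim probe sets), and the genotype labels fit these values. PORB, a protochlorophyllide oxidoreductase gene of etiolated seedlings, and PYK10, a beta-glucosidase gene of roots and hypocotyls, lay at or above the 98.2 percentile of every array. PORB itself had deposited signals of 2207 and 5252 in ein3 eil1, against 4220 and 7629 in wild type. Its normalised log2 difference was -1.13 (SE 0.33; limma adjusted p = 0.42, and 0.0037 with the array pair defined below as a block), with -0.96 in pair 1 and -1.30 in pair 2, which is wider than that of any receptor. It passed without ein3 eil1 replicate 2 (-1.43, adjusted p = 0.0025) and without wild type replicate 1 (-1.58, adjusted p = 0.016), in limma fits of 3 arrays. In each genotype 1 array is titled as a biological repeat. The mean normalised log2 signal of the 27 Bacillus control probe sets split the arrays in the same way, with 7.95 in ein3 eil1 and 7.86 in wild type for the first array of each genotype, and 6.40 in ein3 eil1 and 6.37 in wild type for the second. The 2 first arrays are called array pair 1 below and the 2 second arrays array pair 2.

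All 3 receptor genes lay above the 40th percentile of every array, the level of the brightness filter. GID1C came nearest to it, at the 48.4 percentile on the second array of each genotype. GID1A had deposited signals of 422 and 449 in ein3 eil1, against 329 and 219 in wild type. Both mutant signals were above both wild-type signals as deposited, before the arrays were put on a common scale. Within each array GID1A lay at the 89.0 and 83.4 percentile in ein3 eil1, against the 86.0 and 81.5 percentile in wild type.

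GID1B had deposited signals of 96.7 and 87.8 in ein3 eil1, against 189 and 83.1 in wild type. As deposited, before the arrays were put on a common scale, the first wild-type array stood apart from the other 3, which lay close together. After normalisation those 3 were spread, with log2 signals of 6.83 and 5.97 in ein3 eil1 and 6.61 in wild type, against 7.74. By rank GID1B was at the 64.0 and 50.6 percentile in ein3 eil1, against the 77.4 and 60.5 percentile in wild type. GID1C had deposited signals of 95.9 and 78.1 in ein3 eil1, against 125 and 48.3 in wild type, so that the mutant signals lay between the wild-type ones. Its percentiles were 63.8 and 48.4 in ein3 eil1, against 69.4 and 48.4 in wild type. Probe sets differ in brightness per transcript, so these values place each gene within its array and set no order of transcript abundance among the 3 receptors.

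**Figure D1:**
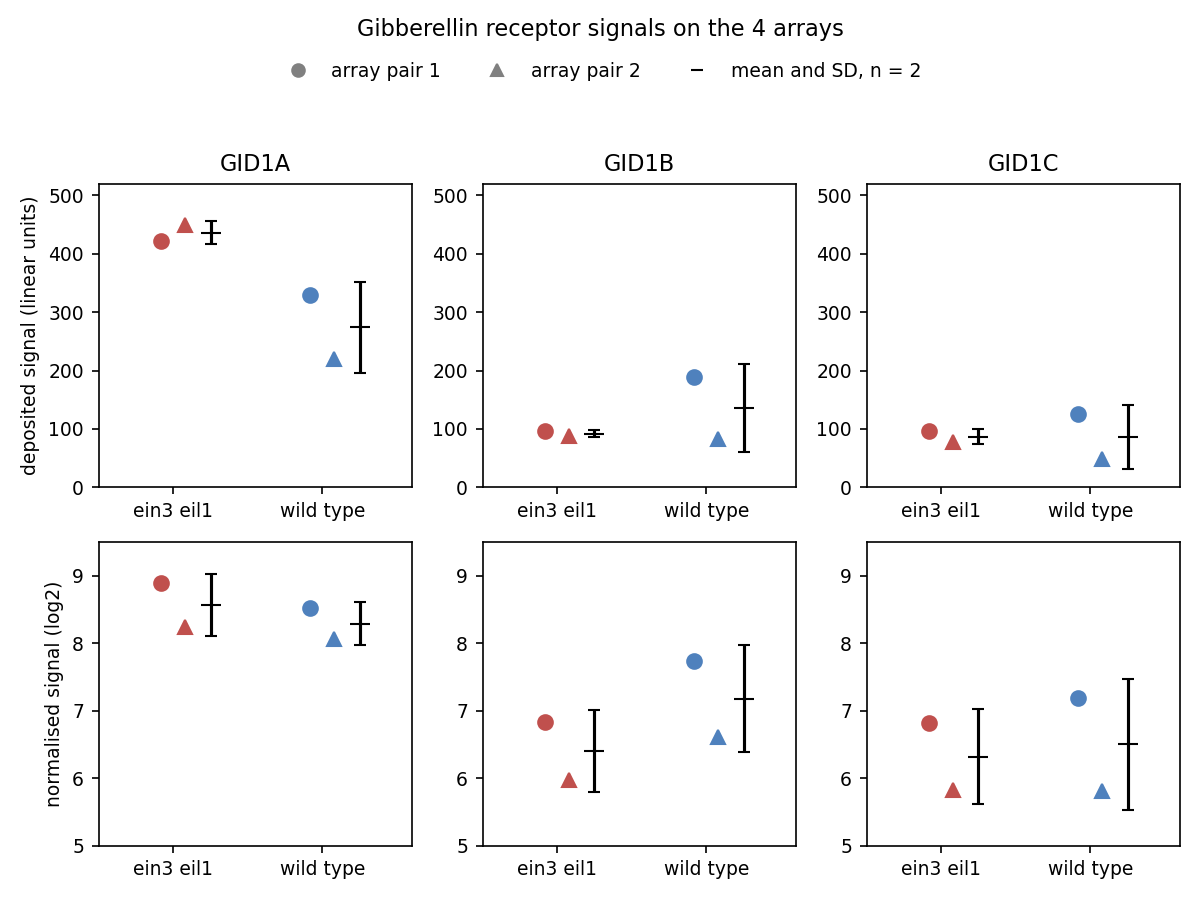
Signals of GID1A, GID1B and GID1C on the 4 arrays, as deposited (top, linear units) and after quantile normalisation (bottom, log2 units), with circles for array pair 1, triangles for array pair 2, and the mean and SD of 2 arrays beside them. After normalisation the pair 1 array is above the pair 2 array in both genotypes for all 3 genes, and for GID1B the mutant point is below the wild-type point in each pair.

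The 2 arrays of a genotype differed from each other by more than the genotype means did. In ein3 eil1 the normalised log2 signal of pair 1 exceeded that of pair 2 by 0.64 for GID1A, 0.86 for GID1B and 1.00 for GID1C, and in wild type by 0.45, 1.13 and 1.37 in the same order. For GID1B and GID1C the gap between wild-type arrays was among the wider ones, exceeded by 6.71% and 3.46% of the 14031 tested probe sets. The median gap over all tested probe sets was 0.33 in ein3 eil1 and 0.37 in wild type. All 3 receptor genes were therefore lower on the pair 2 arrays in both genotypes after normalisation, and the part of the pair in the differences below was not tested beyond the values given within each pair. ICL, an isocitrate lyase gene of seed reserve mobilisation, went the same way, with normalised log2 signals of 11.07 in pair 1 and 10.38 in pair 2 in ein3 eil1, against 11.52 in pair 1 and 9.97 in pair 2 in wild type. PORB and PYK10 went the other way, with the higher signal in pair 2. For PYK10 that gap was below the median gap over all tested probe sets in both genotypes. PORB had 11.25 in pair 1 and 11.79 in pair 2 in ein3 eil1, against 12.21 and 13.09 in wild type. PYK10 had 13.09 and 13.35 in ein3 eil1, against 13.13 and 13.34 in wild type, in the same order. The part of ICL, PORB or PYK10 in the receptor values was not tested.

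None of the 3 receptor genes passed the test between genotypes, with limma fitted over all tested probe sets and 0.05 as the threshold for the adjusted p. In that comparison 0.292% of the tested probe sets were called (0.0784% as higher and 0.214% as lower in ein3 eil1), and 31.6% had groups that did not overlap, against 0 of the 3 receptors on either count. At an unadjusted p under 0.05 the count was also 0 of the 3, against 6.14% of all tested probe sets, and 0 were called in any of the other fits that were run.

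GID1B had the widest difference of the 3. Its normalised log2 signal was 6.83 and 5.97 in ein3 eil1, against 7.74 and 6.61 in wild type, and the groups overlapped between the first mutant array and the second wild-type array. The means were 6.40 ± 0.61 in ein3 eil1 and 7.18 ± 0.80 in wild type (SD, n = 2 each), a difference of -0.78 (SE 0.44; limma adjusted p = 0.96). As a fold, ein3 eil1 over wild type was 0.583, with a 95% interval from 0.289 to 1.17, so neither equal signal nor a several-fold lower one lay outside it. Within array pairs the difference was -0.91 in pair 1 and -0.64 in pair 2. GID1B was also wider in its difference than most genes: 7.88% of tested probe sets had a larger absolute difference. Without 1 array in turn the difference ran from -1.37 without wild type replicate 2 to -0.21 without wild type replicate 1. It stayed negative in every one of the 16 other settings. Those that change only the filter, the variance model or the block return the same -0.78 and could not turn its sign.

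GID1A had the opposite sign. Its normalised log2 signal was 8.88 and 8.24 in ein3 eil1, against 8.51 and 8.06 in wild type. The means were 8.56 ± 0.46 in ein3 eil1 and 8.29 ± 0.32 in wild type (SD, n = 2 each), a difference of 0.27 (SE 0.34; limma adjusted p = 0.9997), or 1.21-fold with a 95% interval from 0.707 to 2.06. The difference was 0.37 in pair 1 and 0.17 in pair 2. It was 0.69 under the deposited scaling, where the median over all tested probe sets was itself 0.40, against 0.0092 after normalisation, and it turned to -0.051 without ein3 eil1 replicate 1 and shrank to 0.04 without wild type replicate 2.

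GID1C showed no steady direction. Its normalised log2 signal was 6.82 and 5.82 in ein3 eil1, against 7.19 and 5.81 in wild type, with means of 6.32 ± 0.71 in ein3 eil1 and 6.50 ± 0.97 in wild type (SD, n = 2 each). The difference was -0.18 (SE 0.50; limma adjusted p = 0.9997), or 0.882-fold with a 95% interval from 0.396 to 1.96. Within pairs it was -0.37 in pair 1 and 0.0034 in pair 2. Leaving out 1 array moved it from -0.89 (without wild type replicate 2) to 0.50 (without wild type replicate 1), and the deposited scaling gave 0.14.

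**Figure D2:**
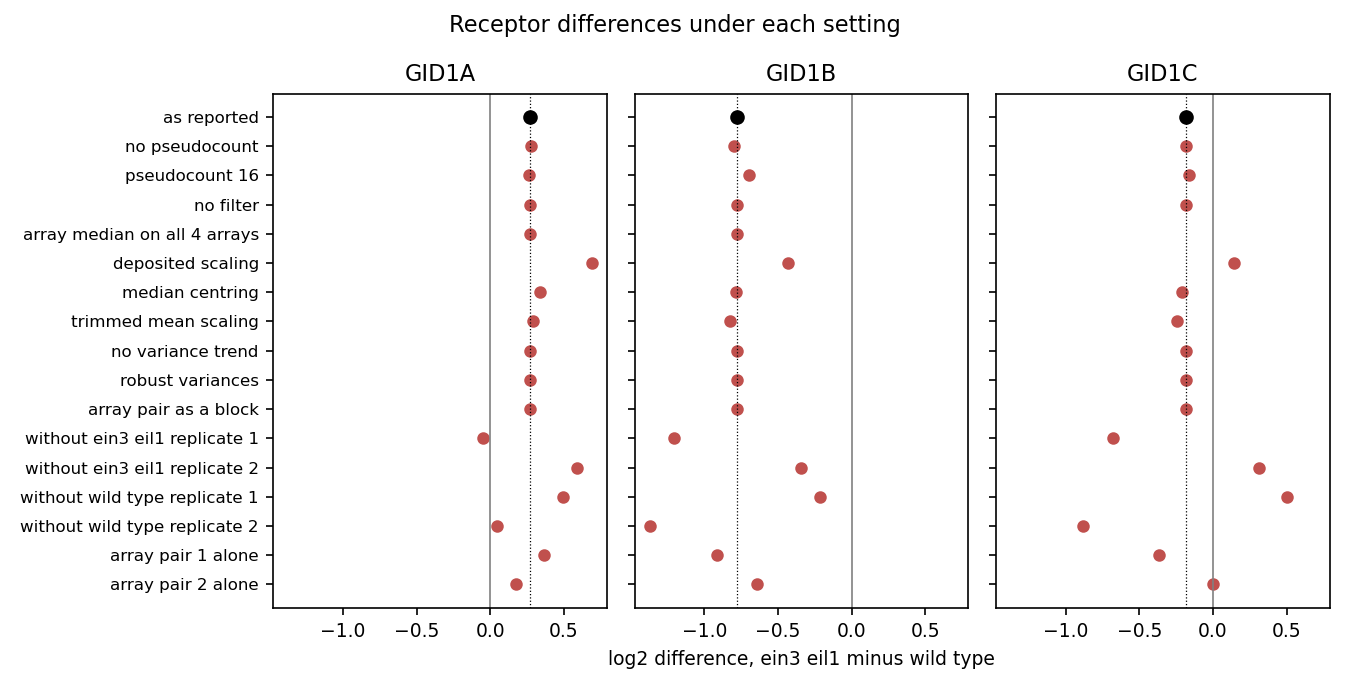
Log2 difference, ein3 eil1 minus wild type, of each receptor gene as reported (black, dotted line) and under each other setting (red); the grey line marks 0. GID1B lies below 0 under every setting shown, between -1.37 and -0.21, GID1A lies below 0 once, and GID1C falls on both sides of 0; GID1C has no point for the filter at the array median because it was below that filter.

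The receptors were also compared with each other inside each array, because a ratio of 2 probe sets on the same array does not depend on the scale factor of that array. Only the change of such a ratio between genotypes is read, since its level reflects the brightness of the probe sets. The ratio of GID1B to GID1C was 1.01 and 1.12 in ein3 eil1, against 1.51 and 1.72 in wild type, from the deposited signals. The genotypes did not overlap. The 2 wild-type ratios lay close together although each gene alone differed between the wild-type arrays, 2.27-fold for GID1B and 2.59-fold for GID1C. On the log2 scale it averaged 0.09 ± 0.11 in ein3 eil1 and 0.69 ± 0.14 in wild type (SD, n = 2 each), a difference of -0.60 that was -0.58 in pair 1 and -0.61 in pair 2. The GID1B signal relative to GID1C was thus 0.661 times as high in ein3 eil1 as in wild type.

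The ratio of GID1B to GID1A was 0.229 and 0.195 in ein3 eil1, against 0.573 and 0.379 in wild type. The genotypes did not overlap here either, and the log2 ratio averaged -2.24 ± 0.16 in ein3 eil1 and -1.10 ± 0.42 in wild type (SD, n = 2 each), a difference of -1.14, or 0.454 times the wild-type ratio. It was -1.32 in pair 1 and -0.96 in pair 2. The ratio of GID1C to GID1A was 0.227 and 0.174 in ein3 eil1, against 0.381 and 0.220 in wild type, so that the genotypes overlapped, and its log2 difference was -0.54, with -0.75 in pair 1 and -0.34 in pair 2.

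These 3 ratios share 3 probe sets and are not independent of each other. The two-sided exact permutation test over the arrays gave p = 0.333 for GID1B over GID1C and for GID1B over GID1A (0.50 after Benjamini-Hochberg adjustment over the 3 ratios), and p = 0.667 for GID1C over GID1A (0.667 adjusted). With 2 arrays against 2 the smallest p this test can give is 0.333, so no ratio could have passed the threshold. Any ratio whose genotypes do not overlap gives that p, so the lack of overlap carries no weight beyond it. Among single probe sets 31.6% had groups that did not overlap, and the share among ratios was not computed. Without each array in turn the difference ran from -0.69 to -0.50 for GID1B over GID1C and from -1.44 to -0.84 for GID1B over GID1A. The sign could not turn there, because the genotypes did not overlap in either ratio.

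**Figure D3:**
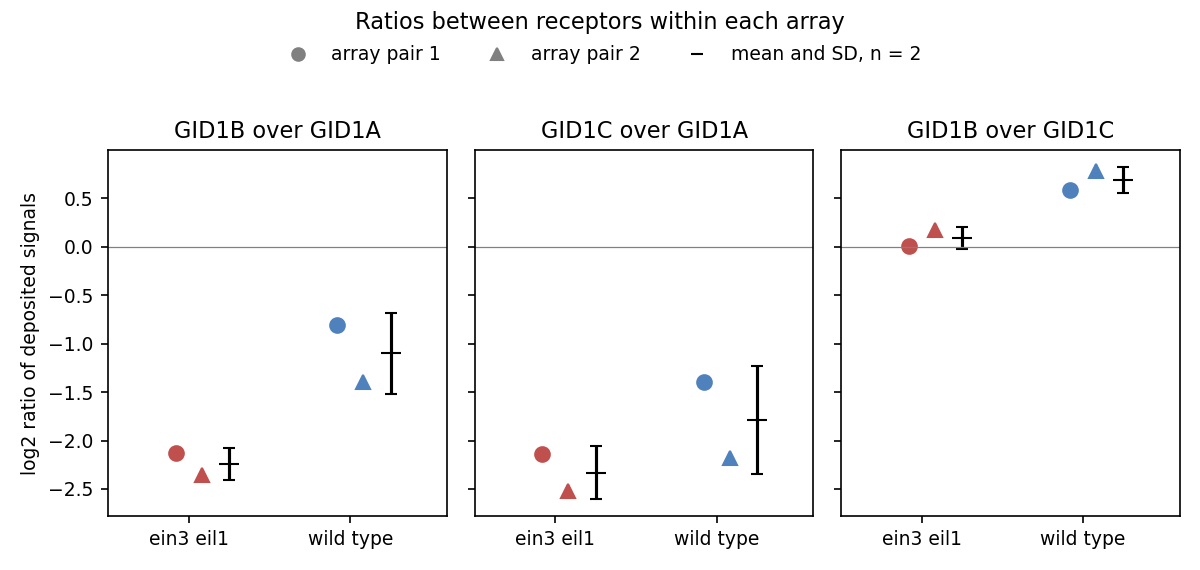
Log2 ratios of deposited signals between 2 receptor genes within each array, with circles for array pair 1, triangles for array pair 2, and the mean and SD of 2 arrays beside them. For GID1B over GID1A and GID1B over GID1C both ein3 eil1 points lie below both wild-type points, whereas for GID1C over GID1A the second wild-type point (-2.18) lies beside the first mutant point (-2.14).

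Across the 4 arrays, GID1B and GID1C resembled each other more than either resembled GID1A. The measure is the Euclidean distance between profiles of normalised log2 signal, each centred on its own mean over the 4 arrays, so it takes in the difference between array pairs as well as that between genotypes. The distance was 0.63 between GID1B and GID1C, 0.83 between GID1A and GID1C and 1.16 between GID1A and GID1B. Of 7534 other tested probe sets with 1 named gene, 112 were closer to GID1B than GID1C was, and 312 were closer to GID1C than GID1B was. The 3 nearest to GID1B were AT4G22460 (0.25), AT1G80960 (0.25) and AT1G56320 (0.26), and the 3 nearest to GID1C were AT3G60680 (0.17), AT2G04800 (0.20) and AT2G01410 (0.20). For GID1A they were AT1G34200 (0.039), AT1G15860 (0.051) and EXGT-A3 (0.063), a gene for a xyloglucan-modifying enzyme of the cell wall. GID1A varied less between the arrays of a genotype than the other two receptors, and 4 profile points leave many genes this close. With median centring in place of quantile normalisation 1, 2 and 1 of the 3 nearest genes recurred for GID1A, GID1B and GID1C.

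Among genes that act below the receptors, 4 of the 10 listed had a named probe set. Of the 3 tested, 0 passed in either direction, against 0.292% of all tested probe sets. SLY1, the F-box protein that targets DELLA proteins, had deposited signals of 283 and 379 in ein3 eil1, against 280 and 173 in wild type, with a normalised log2 difference of 0.15 (SE 0.32). SPY and SEC encode enzymes that attach sugars to proteins, DELLA proteins among them. SPY differed by -0.07 (SE 0.33) and SEC by 0.08 (SE 0.28). For all 3 genes the groups overlapped, and over all tested probe sets 31.6% had groups that did not. The median difference of the 3 genes was 0.08, against 0.0092 over all tested probe sets. Counts over so few genes are a description. The fourth, SLY2, which encodes an F-box protein related to SLY1, was too dim to be tested, with signals of 18.1 and 27.1 in ein3 eil1 and 16.5 and 15.0 in wild type. The DELLA genes, the genes of gibberellin synthesis and inactivation and the list of gibberellin-responsive genes had no probe set with a single named gene here and were not analysed here.

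Of 3 gibberellin transporter genes, 1 was tested. AT1G68570 (NPF3.1), a member of the NRT1/PTR family that carries gibberellin in Arabidopsis roots, had deposited signals of 105 and 204 in ein3 eil1, against 31.2 and 35.7 in wild type. Both mutant signals were well above both wild-type signals, and the normalised log2 difference was 1.68 (SE 0.30), with 1.63 in pair 1 and 1.74 in pair 2. It did not pass the threshold (limma adjusted p = 0.096) and did so under the deposited scaling (0.047), with the array pair as a block (0.0032) and without wild type replicate 1 (0.045). SWEET13 and SWEET14, sugar transporters that also carry gibberellin, were too dim to be tested. SWEET13 had signals of 19.3 and 14.5 in ein3 eil1, against 20.8 and 33.4 in wild type, and SWEET14 had 10.5 and 5.6 in ein3 eil1, against 2.9 and 20.0 in wild type.

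The carboxylesterases are the enzyme family from which the receptors derive. Of 17 listed relatives 12 could be named on the array and 10 of these were bright enough to test, of which 0 passed the threshold, 6 had negative and 4 positive differences, and 3 had an unadjusted p under 0.05, against 6.14% of all tested probe sets. Their median difference was -0.29, and in 5 of the 10 the groups did not overlap, against 31.6% of all tested probe sets. The lowest was AT5G06570, with deposited signals of 15.6 and 17.0 in ein3 eil1, against 47.9 and 39.7 in wild type, and a normalised log2 difference of -1.52 (SE 0.51; limma adjusted p = 0.57). It was below the brightness filter on both mutant arrays and entered the test only through wild type, where it is higher, so its difference and its place in these counts are a description. CXE18 followed, with 76.2 and 126 in ein3 eil1, against 186 and 112 in wild type, and a difference of -0.92 (SE 0.31; limma adjusted p = 0.59). AT1G49650 was close behind at -0.91 (SE 0.32, limma adjusted p = 0.63). It passed the threshold only with the array pair as a block (limma adjusted p = 0.048). At the other end AT2G03550 differed by 0.31 (SE 0.29). CXE20 differed by 1.13 (SE 0.76), and this rested on the second wild-type array, since its signals were 39.6 and 72.0 in ein3 eil1, against 43.5 and 6.9 in wild type, and its difference was -0.10 without wild type replicate 2. The differences of the receptors, from -0.78 to 0.27, lay between those of CXE18 and AT2G03550. That holds without AT5G06570 and CXE20, and it is a description only.

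**Figure D4:**
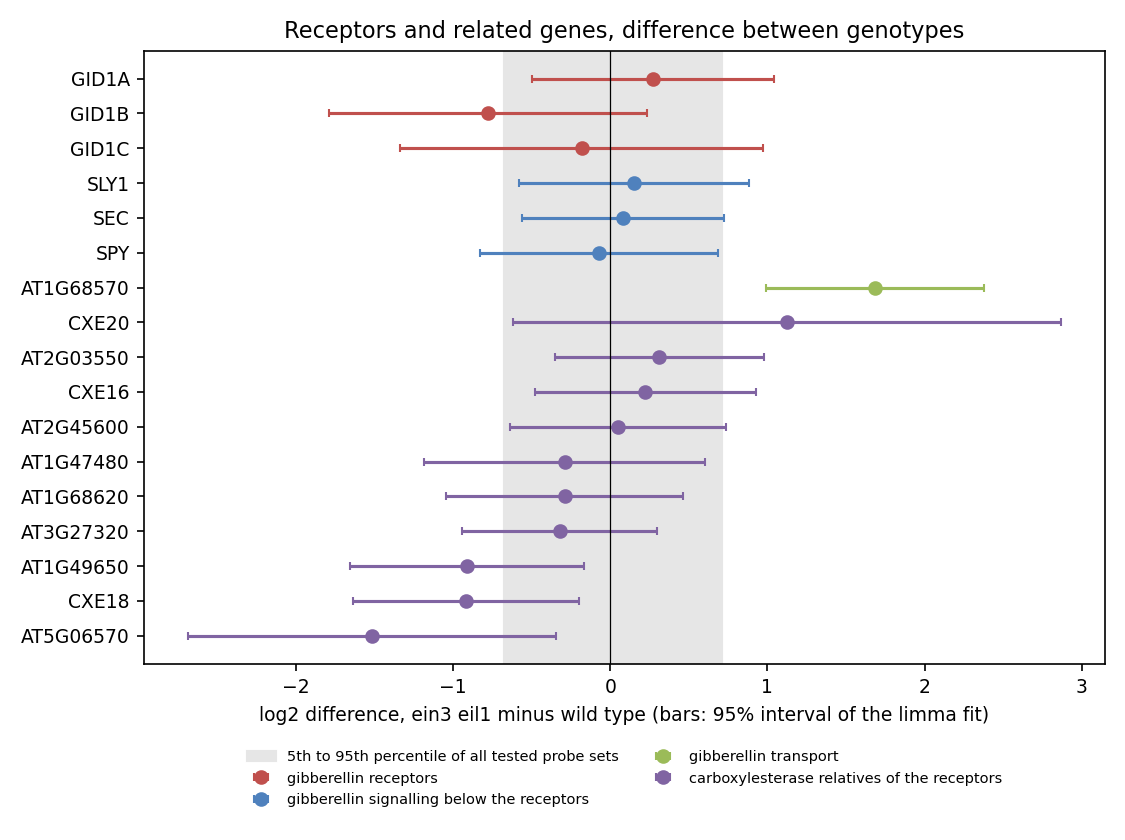
Normalised log2 difference, ein3 eil1 minus wild type, of the tested receptor genes, signalling genes, transporter gene and carboxylesterase relatives, with the 95% interval of the limma fit. The grey band spans the 5th to 95th percentile of all tested probe sets, from -0.68 to 0.71; the intervals of all 3 receptors cross 0, and GID1B (-0.78) lies just outside the band.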

How the data were processed

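RNA was labelled with biotin and hybridised to Affymetrix ATH1 arrays, 1 per sample, per the labels' protocols. The authors deposited 1 linear signal intensity for each probe set on each array, and the submitters' processing notes name MAS5. Its version, the scaling target and the detection calls are not given in the sources used here. Of 22810 probe sets 64 were controls. Values were raised by a pseudocount of 3 (their 10th percentile), taken to log2 and quantile normalised, because the 2% trimmed means of the arrays differed by 77.2%. Probe sets below the 40th percentile of the array on more than 2 arrays were not tested, which left 14031. Fold changes are on the log2(value + 3) scale and understate changes of dim probe sets, and ratios between receptors used deposited values. The fit was limma 3.58.1 (R 4.3.3) with its prior variance following the mean signal. Tests were two-sided and adjusted by Benjamini-Hochberg over every tested probe set. Figures used matplotlib 3.10.9.

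The platform annotation gives 1 gene for 13513 plant probe sets and several for 503, and does not list 8730. Symbols come from it and from RefSeq (TAIR10.1). The text names the receptors, EIN3, the 3 nearest profiles of each receptor and, in each list, the genes past the threshold or else the 2 highest and 2 lowest. AT1G49650 is named as well because it passed with the array pair as a block. The members and lists were chosen with earlier results of these data known, and the lists of related genes were compiled from general knowledge. Precision is limited by 2 arrays per genotype. In each genotype 1 array is titled as a biological repeat, but whether its seedlings were grown apart is not stated in the labels. The p values therefore cover the spread among these arrays only, and how much of it is technical is not known.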

Additional observations from a re-analysis of the deposited data

How the results depend on the processing

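The difference of GID1B kept its sign in all 16 other settings and passed the threshold in none of the 14 that have a test. GID1A turned in 1 of 16 and GID1C in 4 of 15, since GID1C was not tested with the filter at the array median on all 4 arrays. Settings that change only the filter, the variance model or the block return the same differences and could not turn a sign. Without 1 array in turn GID1A ran from -0.051 to 0.59, GID1B from -1.37 to -0.21 and GID1C from -0.89 to 0.50. GID1C was 0.14 under the deposited scaling and 0.0034 in array pair 2 alone. With the array pair as a block the limma adjusted p was 0.73 for GID1A, 0.11 for GID1B and 0.86 for GID1C. That block rests on the titles and the control levels, and deviations of the pairs correlated at 0.43 over tested probe sets. The differences of all 3 receptor ratios kept their sign under the 8 other settings run for each. For both ratios with GID1B the genotypes did not overlap, so leaving out 1 array or taking 1 pair alone could not turn the sign. GID1C over GID1A ran from -0.94 to -0.15 without 1 array in turn. The wild-type level of GID1A ran from 8.11 to 8.61 without 1 wild-type array. Those of GID1B and GID1C moved further, from 6.68 to 7.83 and from 5.89 to 7.26.

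Counts over all probe sets moved more. As reported, 11 were higher and 30 lower in ein3 eil1. The counts were 2 and 12 without a filter, 1 and 11 with the filter at the array median, 59 higher under the deposited scaling, 23 and 49 with median centring, and 177 and 214 with the array pair as a block. Without 1 array in turn they ran from 34 to 108 higher and from 34 to 123 lower. The causes were not tested. Under the deposited scaling the median difference was 0.40, against 0.0092 as reported. Among the other gibberellin and carboxylesterase genes, 0 passed as reported, 1 (AT1G68570) under the deposited scaling, 2 (AT1G68570 and AT1G49650) with the block, and 0 to 1 without 1 array in turn.

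SPY, SLY1 and SEC, with reported differences near 0, changed sign, and so did CXE20, with a reported difference of 1.13. SPY ran from -0.39 to 0.24 without 1 array in turn and was 0.31 under the deposited scaling, 0.17 without ein3 eil1 replicate 2 and 0.24 without wild type replicate 1. SLY1 was -0.013 without ein3 eil1 replicate 1 and -0.14 without wild type replicate 2. SEC was -0.0086 without ein3 eil1 replicate 2 and -0.045 in array pair 1 alone, and CXE20 ran from -0.10 to 2.35 without 1 array in turn and -0.16 in array pair 1 alone. With 2 arrays per genotype, and dim probe sets such as SLY2 and SWEET14 left out, smaller differences could not be resolved.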
